A study of Nematostella vectensis with 10 samples.

Results

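NVE14554, named *ISX-like*, is 1 of the 25729 gene models counted in RNA from the apical piece and the remaining body of the larva (planula) of the sea anemone *Nematostella vectensis*. It was taken by its identifier, as the transcription factor gene that the study followed in the apical organ, and it was among the 21683 gene models that passed the filter on low counts. The study cut the apical tissue away from motile larvae to ask which genes mark the apical sensory organ. Each sample pooled many larvae from several batches, and the labels name neither a treatment nor a strain. The groups were late planula apical tissue (3 libraries), mid-planula apical tissue (2), late planula body (3) and mid-planula body (2). Late planulae were 75 to 85 h and mid-planulae 50 to 60 h post fertilisation. A tissue piece holds several cell types, so in these bulk libraries fewer cells of a type and less RNA per cell cannot be told apart.

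The apical organ lies at the aboral pole, which leads when the larva swims, and it bears a tuft of long cilia. Cells that carry the tuft form a spot in the apical pit, and larval neurons form a ring around them. *ISX-like* encodes a paired (PRD) class homeodomain protein, a family of DNA-binding transcription factors, related to the intestine-specific homeobox gene *ISX* of bilaterians. Fibroblast growth factor (FGF) signalling and the transcription factor gene *Six3/6* are known for patterning the aboral domain of this animal. Their gene models were not analysed here, since no annotation used here ties names to NVE identifiers.

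Counts per library summed to 14364093 to 27730410 (median 20335940). The trimmed mean of M-values (TMM) factors differed by stage, from 0.742 to 1.07 in late and from 1.07 to 1.27 in mid-planula libraries. Levels below are TMM-normalised counts per 1000000 (CPM). They were not corrected for transcript length and so cannot be ranked between genes. In every library 70.3% to 83.9% of the counts between 1 and 20 were even numbers, so the counting error may be larger than the Poisson intervals given below, which cover counting error only. The tissue labels were checked with 4 markers of gland cell type 4, a pharyngeal and mesenterial cell type of the body. Their summed level was 6.63 to 25.3 CPM in apical libraries and 1181 to 3370 CPM in body libraries. edgeR called all 4 lower in apical tissue at each stage. Of the 21683 gene models tested, it called 1343 lower in late and 551 lower in mid apical tissue. Replicate libraries were distinct, with a chi-square of 33.3 to 116 per degree of freedom between their counts.

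NVE14554 transcripts were abundant in apical tissue and scarce in the body at both stages. The late planula apical libraries held 9844, 6961 and 4003 counts of the gene, and the mid-planula apical libraries held 10342 and 7075. In the late planula body libraries there were 12, 58 and 26 counts, while those of mid-planula bodies had 103 and 202. Every apical library stood above every body library. After normalisation the levels were 542, 314 and 298 CPM in late apical tissue and 359 and 462 CPM in mid apical tissue. Body levels were 0.868, 2.78 and 1.02 CPM in the late planula and 3.73 and 9.04 CPM in the mid-planula. The lowest apical library therefore exceeded the highest body library 33.0 times.

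**Figure D1:**
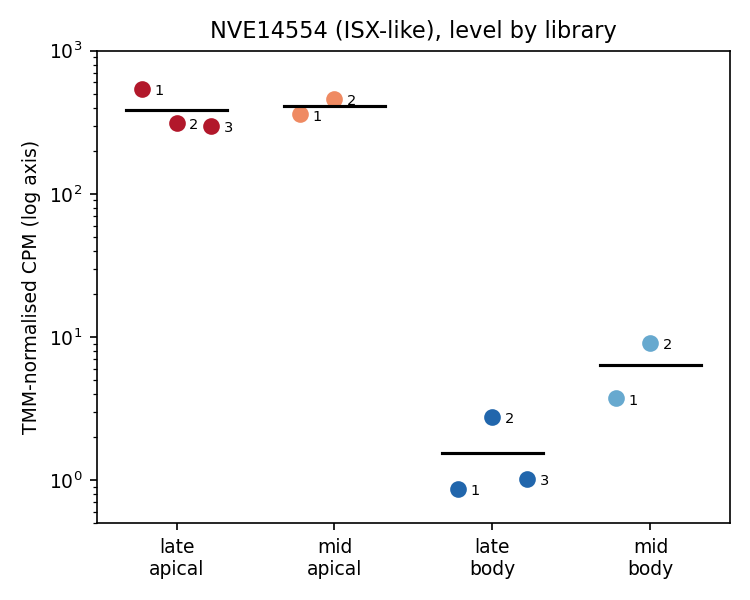
NVE14554 (*ISX-like*) level in TMM-normalised CPM (log axis) in each library, by tissue and stage; points are libraries labelled with their replicate number and bars are group means. The 5 apical libraries lie between 298 and 542 CPM and the 5 body libraries between 0.868 and 9.04 CPM.

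Body counts of NVE14554 were low but lay above the smallest level taken as detectable, 3 counts or 0.104 to 0.223 CPM depending on the library. The exact Poisson 95% intervals of the late planula body counts were 6.20 to 21.0, 44.0 to 75.0 and 17.0 to 38.1. Those of the mid-planula body counts were 84.1 to 125 and 175 to 232. As levels, these intervals were 0.448 to 1.52, 2.11 to 3.59 and 0.664 to 1.49 CPM in the late and 3.04 to 4.52 and 7.84 to 10.4 CPM in the mid-planula body. Replicate 2 lay above the intervals of the other body libraries of its stage in both cases. Apical cells carried over into the body piece would also give such counts, and their part in the body level was not tested. The values that bear on it are those of the other spot and ring genes, given further on.

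Between tissues, NVE14554 averaged 395 ± 104 CPM in apical and 3.49 ± 3.33 CPM in body libraries (SD, n = 5 each). With the stages pooled, the log2 fold change was 6.81 ± 0.61 (SE), a 112-fold difference with a 95% interval of 5.49 to 8.13 (edgeR's quasi-likelihood test, adjusted p = 8.96e-06). Of all gene models tested, 5.43% were called higher in apical tissue in this comparison, and 4 had a larger estimated log2 fold change than NVE14554. These include NVE27, which was under the floor of 3 counts in each body library. Its lower bound of 6.56 is below 6.81, so it cannot be ordered against NVE14554. NVE10381 (7.21) and NVE10382 (7.06) were also larger, with up to 50 and 171 counts in a body library. Both values lay inside the 95% interval of NVE14554. For NVE14554 a two-sided exact permutation test of the mean log2 CPM gave a difference of 7.24 and p = 0.00794. This is the smallest value that reassigning 5 against 5 libraries allows. The study singled out the gene from these same libraries, so these p-values are not independent evidence of its direction. Leaving out the mid-planula body library of replicate 2, the body library with the highest level, raised the pooled fold to 184.

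Within the late planula, NVE14554 averaged 385 ± 136 CPM in apical and 1.55 ± 1.06 CPM in body libraries (SD, n = 3 each), and the groups were 107 times apart at their nearest libraries. The log2 fold change was 7.93 ± 0.56 (SE), or 243-fold (95% interval 6.72 to 9.13, edgeR adjusted p = 1.92e-06). In this comparison 4.61% of gene models were called higher in apical tissue, and 5 had a larger estimated log2 fold change. These include NVE10492 and NVE27, which were under the floor of 3 counts in each late body library. Their lower bounds of 6.29 and 6.58 are below 7.93, so they cannot be ordered against NVE14554. The others were NVE23318 (8.53), NVE10381 (8.14) and NVE10382 (8.06), each inside the 95% interval of NVE14554. Without the late body library of replicate 2 the difference of NVE14554 was 401-fold.

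Within the mid-planula, the mean was 410 ± 72.9 CPM in apical and 6.38 ± 3.76 CPM in body libraries (SD, n = 2 each), and the nearest libraries were 39.7 times apart. The log2 fold change was 6.01 ± 0.61 (SE), or 64.4-fold (95% interval 4.68 to 7.34, edgeR adjusted p = 0.000159), beside a share of 1.75% of gene models called higher in mid apical tissue. Here 14 gene models had a larger log2 fold change, of which 5 were called. Among those called was NVE27, whose lower bound of 6.52 is above 6.01 but inside the 95% interval of NVE14554. The difference of NVE14554 became 110-fold without the mid-planula body library of replicate 2. In both stages the size of the fold turned on 1 body library, of 58 counts in the late and 202 counts in the mid-planula, while the call held in every fit.

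The spot genes NVE27, NVE10492, NVE8009, NVE2832 and NVE2235 are those that the study named with NVE14554 for staining in the apical spot, and NVE14902 (*PoxA*, a Pox-type paired box gene), NVE8226 (*Slc*, a solute carrier gene) and NVE4712 those it named for the ring. They too were picked by the study from these libraries. The study also describes spot expression of the neuropeptide genes NVE226 and NVE3775. Those are not among the 5 spot genes here and are given further on. edgeR called all 5 spot genes higher in apical tissue in the pooled, late and mid comparisons, with median log2 fold changes of 5.91, 6.89 and 5.02 (the late median is 6.29 with NVE27 and NVE10492 at their lower bounds). All 3 ring genes were also called in each comparison, with medians of 4.20, 4.75 and 3.57. The medians over all gene models tested were -0.04, -0.01 and -0.07. NVE14554 thus lay above the median of either list in each comparison, without a test of that difference.

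Among the spot genes, NVE27 had 381, 236 and 188 counts in late apical and 197 and 236 counts in mid apical libraries, but at most 2 counts in a body library. Its level was at least 94.1-fold higher in apical tissue, set against a floor of 3 counts per library. NVE10492 had 258, 344 and 104 counts in late apical libraries and 0 in each late body library, at least 78.4-fold higher against the same floor. The other 3 spot genes had counts in the body at both stages. NVE8009 measured 231, 284 and 187 CPM in late apical libraries and 22.1, 33.2 and 26.7 CPM in late body libraries, so its groups were apart, with an 8.56-fold difference.

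The body level can be given as a percentage of the apical level, both taken as group means. For NVE14554 it was 0.404% in the late planula and 1.56% in the mid-planula. For NVE8009 the late and mid values were 11.7% and 12.6%, and for NVE2832 they were 6.10% and 5.98%. NVE2235 gave 0.667% and 2.91%. NVE27 was under the floor of 3 counts in each body library, which allows up to 1.05% in the late and 1.09% in the mid-planula. For NVE10492 the floor allows up to 1.28% in the late planula, and the mid value was 3.08%. The ring genes stood at 3.72% and 8.42% (NVE14902), 11.4% and 13.5% (NVE4712) and 2.82% and 5.79% (NVE8226). By group means NVE14554 thus had the lowest percentage of the genes above the floor at each stage. It could not be ordered against NVE27 or NVE10492 in the late planula. In the mid-planula the bound of 1.09% for NVE27 lay below the group-mean 1.56% of NVE14554. That bound was above the 1.04% of NVE14554 in replicate 1. Single libraries did not settle the order of NVE14554 against NVE2235 at either stage. NVE2235 had 0, 0 and 8 counts in late body libraries, so its late value rests on replicate 3. Between mid-planula libraries of the same number, NVE2235 stood at 4.37% and 1.399%, and NVE14554 at 1.04% and 1.96%.

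**Figure D2:**
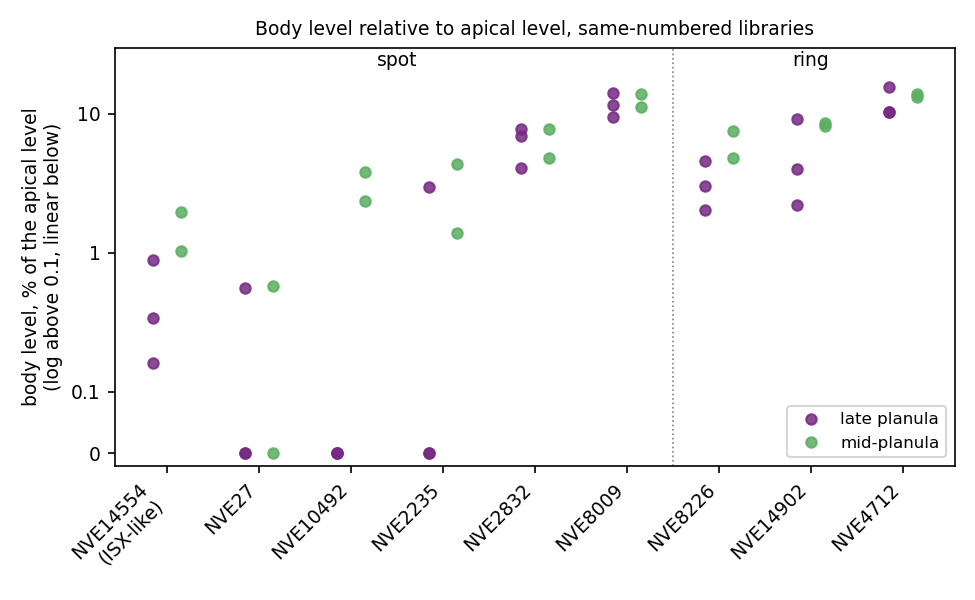
Body level as a percentage of the apical level (log axis above 0.1, linear below) for NVE14554, the other 5 spot genes and the 3 ring genes; each point sets a body library against the apical library of the same stage and number, with late planula points left of mid-planula points. NVE14554 lies at 0.160% to 0.885% in late and 1.04% to 1.96% in mid-planulae, points at 0 are libraries without a count, and the points of NVE27 and the late points of NVE10492 rest on body counts under the floor of 3.

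Apical levels of NVE14554 did not differ detectably between the stages. The late libraries at 542, 314 and 298 CPM lay on both sides of the mid libraries at 359 and 462 CPM. The log2 fold change, late over mid-planula, was -0.09 ± 0.45 (SE) with a 95% interval of -1.06 to 0.88 (edgeR adjusted p = 0.954, unadjusted p = 0.839), so a change of up to about 1 log2 unit either way was within the error. In this comparison 2.10% of gene models were called in either direction. The sign was not fixed, since leaving out single apical libraries turned it positive. Over all apical libraries the coefficient of variation of NVE14554 was 26.4%, within the 16.2% to 39.0% of the other spot genes and below the 33.6% to 59.8% of the ring genes.

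The spot and ring genes likewise gave no call between the stages in apical tissue. Since edgeR called 2.10% of all gene models in this comparison, a lack of calls is not particular to them. None of the 5 spot genes passed with edgeR, the DESeq2 Wald test or limma-voom, and 0 had an unadjusted p under 0.05 in any of them. Of the 3 ring genes 0 passed and 1, NVE8226, had an unadjusted p under 0.05 with each tool. NVE8226 measured 1108, 405 and 551 CPM in late apical and 238 and 462 CPM in mid apical libraries, so its groups overlapped. Its log2 fold change was 0.98 (95% interval 0.09 to 1.86, edgeR adjusted p = 0.252).

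To read NVE14554 against the spot without the normalisation factor, its level was divided by the summed level of the other 5 spot genes of the same library. The ratio was 101%, 69.2% and 67.8% in late apical libraries and 85.5% and 94.0% in mid apical libraries. Late libraries again fell on both sides of the mid ones. On the log2 scale the means were -0.36 ± 0.32 in late (SD, n = 3) and -0.16 ± 0.10 in mid apical libraries (SD, n = 2), a difference of -0.20 that was smaller than the late SD. With 2 against 3 libraries no exact test can reach 0.05, and none was run. In the body the ratio was 2.20%, 6.42% and 2.82% in late and 7.77% and 22.7% in mid libraries. By this measure, in which NVE8009 takes most of the sum in the body, the late body ratios were all below the mid body ratios. Set against the mean log2 level of the 5 genes instead, the log2 differences were 0.10, 1.82 and -0.12 in late and 1.28 and 2.60 in mid body libraries, so those groups overlapped. That mean used a prior count of 2, added before taking logs, and the level of NVE14554 used none. In the body the mean leans on this prior, as NVE27, NVE10492 and NVE2235 had at most 2, 10 and 16 counts there. The summed level of the other spot genes was 39.4, 43.3 and 36.0 CPM in late and 48.0 and 39.8 CPM in mid body libraries.

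**Figure D3:**
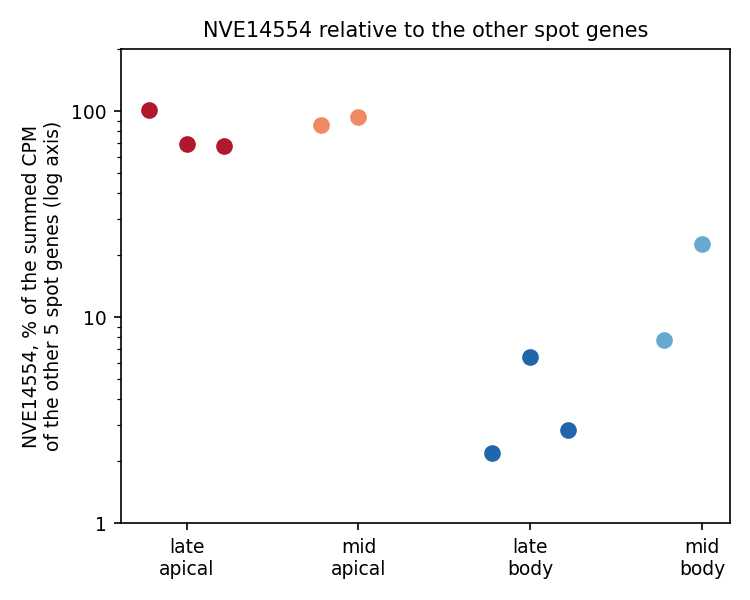
NVE14554 as a percentage of the summed CPM of the other 5 spot genes in the same library (log axis), by tissue and stage; each point is a library. Apical libraries lie between 67.8% and 101%, late body libraries between 2.20% and 6.42% and mid body libraries at 7.77% and 22.7%.

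Within the body, NVE14554 was lower in each late library (0.868, 2.78 and 1.02 CPM) than in either mid library (3.73 and 9.04 CPM), and the nearest libraries were 1.34 times apart. Of all gene models tested, 17.6% had every late body library below every mid body library. The log2 fold change, late over mid-planula, was -2.01 ± 0.49 (SE), a 4.03-fold lower level with a 95% interval of -3.08 to -0.94. The unadjusted p was 0.00137 and the adjusted p 0.0505 with edgeR, which missed the threshold of 0.05, and 0.650% of gene models were called lower in the late body. In 5 of 9 alternatives the adjusted p was below 0.05, the lowest being 0.00233 with the DESeq2 Wald test and the highest over the 9 being 0.113. Among the passing ones, halved counts and total counts alone (edgeR adjusted p = 0.0461 and 0.0412) were added after seeing the data. Without the mid body library of replicate 2, which leaves a single mid body library, the log2 fold change was -1.24. Without the late body library of replicate 2 it was -2.73 (edgeR adjusted p = 0.0187).

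Of the other spot and ring genes, 1 was called between stages in the body. Of all gene models, edgeR called 0.650% lower in the late body. NVE10492 was the 1 spot gene called lower in the late body by edgeR (adjusted p = 0.0194), having 0 counts in each of the 3 late libraries and 8 and 10 counts in the mid libraries, at least 2.31-fold lower against the floor of 3 counts per library. That call was lost with limma-voom (adjusted p = 0.132). NVE27 was at or below 2 counts in each body library, so no fold is given for it. NVE2235 had 0, 0 and 8 counts in late and 16 and 4 counts in mid body libraries, and its log2 fold change of -1.58 (95% interval -3.55 to 0.39) did not pass. NVE8009 gave -0.33 (95% interval -0.88 to 0.23) and NVE2832 gave 0.45 (-0.32 to 1.22), neither of which passed. Of the 3 ring genes 0 passed with edgeR, the DESeq2 Wald test or limma-voom, and 0 had an unadjusted p under 0.05. NVE14902, the ring gene with the most negative value, gave -0.97 (95% interval -1.97 to 0.04).

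**Figure D4:**
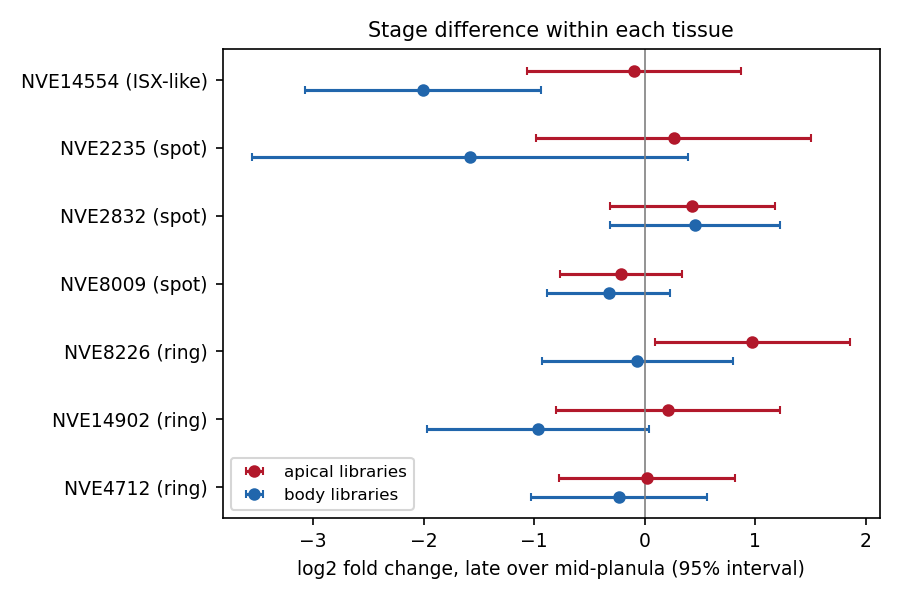
Log2 fold change, late over mid-planula, in apical and in body libraries for NVE14554, 3 other spot genes and the 3 ring genes; points are edgeR estimates and bars 95% intervals. For NVE14554 the apical interval spans 0 (-1.06 to 0.88) and the body interval runs from -3.08 to -0.94; NVE27 and NVE10492 are left out because body libraries were at or near 0 counts.

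Whether the apical to body difference itself changed with stage was tested as an interaction. For NVE14554 the apical over body log2 fold change was 1.92 ± 0.67 (SE) larger in the late than in the mid-planula (95% interval 0.46 to 3.38). Its unadjusted p was 0.0142 and its adjusted p 0.963 with edgeR, so the difference did not pass. Across all gene models 5 were called, a share of 0.0231%, and 875 had an unadjusted p under 0.05. The value was 1.15 without the mid body library of replicate 2 and 2.64 without the late body library of replicate 2.

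The gene models whose levels followed NVE14554 most closely were ranked by Pearson's r of log2 CPM over the 10 libraries, among 15319 whose log2 CPM averaged 1 or more. The 8 highest were NVE21767, NVE12973, NVE10381, NVE15867, NVE15066, NVE15519, NVE23318 and NVE10382, with r between 0.986 and 0.992. The libraries fall into 2 tissues, so r mostly restates the tissue difference, and 99 gene models reached 0.95. No names were available for these identifiers. NVE14902 (r = 0.979, rank 22) and NVE8009 (r = 0.979, rank 23) were the closest of the named ring and spot genes that met this minimum of average level. The spot gene NVE10492 had r = 0.989, within the range of the 8, and was left out by the minimum. The choice of the 8 depended on the measure, as 1 of them was among the 8 highest by Spearman's rho.

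Since these 8 were chosen for their pattern over the same libraries, their values are a description. NVE21767, the nearest, measured 191, 130 and 120 CPM in late apical and 151 and 173 CPM in mid apical libraries. In the body it measured 4.56, 9.15 and 9.30 CPM in late and 15.5 and 22.2 CPM in mid libraries, so the late body again lay below the mid body. NVE10381 and NVE10382, which have consecutive identifiers, had the largest pooled log2 fold changes of the 8, at 7.21 and 7.06. Whether their models overlap was not examined. The pooled log2 fold changes of the 8 ranged from 1.51 to 7.21, which shows that a close r went with tissue differences of very different size.

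Between stages the body values of all 8 were negative, from -2.88 to -0.18 (median -1.35). In 6 of them, all but NVE15519 and NVE10382, every late body library was below every mid body library, beside the 17.6% of all gene models. NVE14554 was itself lower in each late body library, so choosing the 8 by r favoured genes with such a fall. The counts given here beside their shares are therefore a description and not a test. NVE23318 was the 1 of the 8 called lower in the late body by edgeR (adjusted p = 0.0141), beside the 0.650% of all gene models. It had 1, 4 and 7 counts in late and 49 and 26 counts in mid body libraries, and limma-voom did not call it (adjusted p = 0.171). The DESeq2 Wald test called 4 of the 8 lower, and 2.39% of all gene models it tested. In apical tissue their stage values ran from -0.44 to 0.59, and 0 passed with any of the 3 tools, with 0 at an unadjusted p under 0.05.

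**Figure D5:**
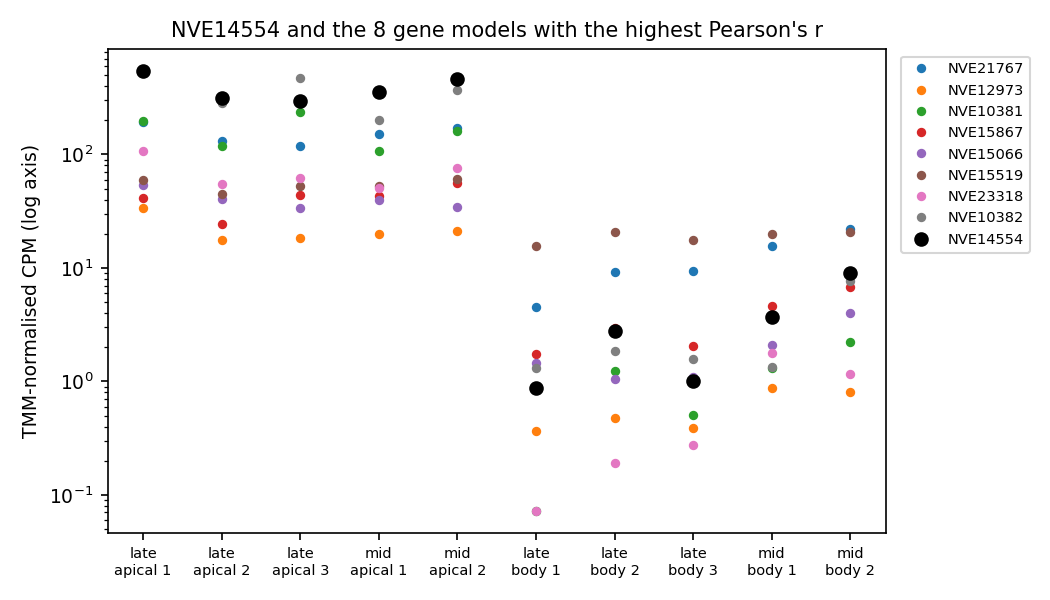
Levels in TMM-normalised CPM (log axis) of NVE14554 (black) and of the 8 gene models with the highest Pearson's r with it, in each of the 10 libraries; colours are gene models. NVE14554 lies at 298 to 542 CPM in apical and 0.868 to 9.04 CPM in body libraries, and each of the other gene models is also higher in apical libraries.

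The neuropeptide genes NVE226 (*PRGamide*) and NVE3775 (*RPamide III*), which encode precursors of signalling peptides, showed a pattern unlike that of NVE14554. NVE226 measured 502, 145 and 423 CPM in late apical and 193, 55.3 and 73.3 CPM in late body libraries, so its groups overlapped. With the stages pooled its log2 fold change was 1.83 (edgeR adjusted p = 0.00786). It was called in the late planula (1.74, edgeR adjusted p = 0.0427) and not in the mid-planula (2.02, adjusted p = 0.105). The mid-planula value passed in 3 of 10 alternatives (adjusted p 0.00136 to 0.119 over the 10), and the late call was lost in 6 of the 10 fits that left out 1 library. NVE3775 measured 8.92, 4.69 and 9.08 CPM in late apical and 14.6, 8.24 and 9.73 CPM in late body libraries. Its pooled log2 fold change of -0.37 (95% interval -0.98 to 0.23, edgeR adjusted p = 0.513) did not pass.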

How the data were processed

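Per the labels, RNA of 10 libraries was prepared with a kit for mRNA. What the authors deposited are raw read counts on NVE gene models, not normalised. Per the submitters' processing notes and the study's methods, adapters were removed with Trimmomatic 0.36, reads were mapped with STAR and counted with HTSeq 0.6. The genome build and the handling of strand, overlapping models and near-identical copies are not given in the sources used here, so counts of such models are uncertain. Groups and replicate numbers came from the sample labels. Nothing says that replicates were separate cultures beyond the pooled batches, so p-values measure the spread between these samples.

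Differences were tested by quasi-likelihood in edgeR 4.0.16 (R 4.3.3, with limma 3.58.1) with TMM normalisation, filterByExpr (minimum count 10, minimum total count 15) and Benjamini-Hochberg adjustment over 21683 gene models, called at an adjusted p under 0.05. The pooled comparison set 5 apical against 5 body libraries without covariates, and the others used a fit of all 10 libraries as 4 groups. Log2 CPM used a prior count of 2. A level against a group without more than 3 counts is a lower bound. Alternatives were other normalisations, the Wald test of DESeq2 1.42.0, limma-voom, other filters, a fit of the compared libraries alone, stage as a covariate, the replicate block and leaving out each library. Halving the counts, total counts alone, and further settings of the level test and the similar genes were added after seeing the data. Scripts were tested on simulated data. The genes named are NVE14554, the spot, ring and neuropeptide genes the study's text names, and the 8 gene models of highest Pearson's r. The gene and these lists were chosen with earlier results of these data known. No gene sequence or coordinate was used here.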

Additional observations from a re-analysis of the deposited data

Results flagged for a closer look

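In 38 groups, the 5 apical and the 5 body libraries of 19 named gene models, the highest or lowest library was compared with its nearest neighbour by Dixon's test. It marked 4 groups, and NVE14554 was not among them. The nominal rate of about 1 in 20 assumes independent groups, each from a single population. These groups mix the stages and include gene models chosen by Pearson's r, so that rate need not hold here. NVE2832, a spot gene, measured 17.3 CPM in the late body library of replicate 1, with the nearest body library at 10.1 CPM. NVE226 (*PRGamide*) measured 193 CPM in the same library, with the nearest at 75.6 CPM. NVE12973 measured 33.5 CPM in the late apical library of replicate 1, with the nearest apical library at 21.0 CPM. NVE10382 measured 7.65 CPM in the mid body library of replicate 2, the body library in which NVE14554 was also highest, with the nearest at 1.87 CPM.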

How the results depend on the processing

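The apical over body difference of NVE14554 kept its direction and its call in every setting. Its log2 fold change ran from 6.66 to 7.21 (pooled), 7.79 to 8.03 (late) and 5.98 to 6.17 (mid), and from 6.57 to 7.53, 7.60 to 8.65 and 5.50 to 6.78 when single libraries were left out. The level difference ran from 7.15 to 7.24 over normalisations and from 6.89 to 7.70 over libraries left out. The stage difference in the body passed with the DESeq2 Wald test (-1.99), no filter (-2.02), at least 10 counts in every library (-1.99), halved counts (-1.99) and total counts alone (-2.25), and ran from -2.73 to -1.24 with a library left out, passing without either late library of replicate 2. The stage difference in apical tissue ran from -0.44 to -0.08, and from -0.42 to 0.10 over libraries left out. It turned positive without the mid apical library of replicate 2 (0.10) and without the late apical libraries of replicate 2 (0.09) or 3 (0.05). The interaction ran from 1.81 to 1.92 (1.15 to 2.64 over libraries left out) and never passed. The cause of these changes was not tested.

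The ratio of NVE14554 to the other spot genes differed between stages by -0.31 with the mean of log2 levels, and by -0.39 to -0.10 over apical libraries left out. Of the 8 most similar gene models, 1 remained with Spearman's rho, 6 with a prior count of 0.5, and 4 to 7 with a library left out. Over libraries left out, body stage values ran from -0.48 to 0.056 (NVE4712), -0.21 to 0.097 (NVE8226) and -2.26 to 0.25 (NVE10382), each highest without the mid body library of replicate 2.

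It was not established that replicate numbers pair apical with body libraries. The correlation of their deviations was 0.235, 0.490 and -0.0918 for the 3 late numbers and 0.155 for the mid numbers, and 2 of the 3 late apical libraries correlated best with their own number. With the replicate block, the log2 fold change of NVE14554 was 7.11 (pooled), 7.94 (late) and 6.12 (mid), and the interaction 1.82 (edgeR adjusted p = 0.417). The block moved the pooled count of calls to 4313, against 2482 without it, and the interaction count to 45, against 5.

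With all libraries kept, counts of calls ran from 1861 to 4313 (pooled) and 1716 to 3249 (late, 2343 in the design used). They ran from 596 to 1481 (mid, 931), 225 to 1490 (stage in apical tissue, 455) and 501 to 1765 (stage in body, 572). The interaction count ran from 1 to 107, and the DESeq2 Wald test most often gave the highest count. Stage counts also turned on single late libraries. In apical tissue the count was 61 without the late apical library of replicate 3 and 672 without the late body library of replicate 1. In the body it was 78 without the late body library of replicate 3 and 779 without the late apical library of replicate 2. Total counts alone moved the median of all gene models to -0.32 in the apical and -0.34 in the body stage comparison. There it called 128 higher and 600 lower (255 and 200 with TMM) in late apical tissue, and 216 higher and 464 lower (431 and 141 with TMM) in the late body. Depth limits the body counts, at 12 to 202 per library.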
